A study of Mus musculus with 11 samples.

Results

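Bace1 and 8 other genes of amyloid precursor processing (Bace2, App, Aplp1, Aplp2, Psen2, Ncstn, Aph1a and Adam10) were followed through a single-nucleus RNA sequencing study of mouse brain. The 9 genes were taken by symbol from the 25938 symbols of the deposited count matrix, and all were found. UMI counts (unique molecular identifiers, 1 per captured RNA molecule) were summed per library and deposited cell class. A level is given as CPM, the standard depth-scaled count, from the UMIs of a gene over all UMIs of that class in that library. The matrix held 110304 nuclei in 11 libraries.

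All mice carried the human transferrin receptor (TfR) knocked in on both alleles, and received 4 weekly intravenous doses, with tissue frozen 72 h after the last. The ATV:BACE1 group (3 libraries, 57 mg/kg per dose) received, going by the name in the sample labels, a TfR-binding antibody against BACE1. The series' design text differs: it names no BACE1 antibody, describes the control as a TfR-binding vehicle that carries no oligonucleotide, and gives 60 mg/kg. The sample labels are followed here, and the absence of an oligonucleotide is taken from the design text. The other groups all received an antisense oligonucleotide (ASO) against Malat1: as OTV:Malat1, coupled to a TfR-binding vehicle (3 libraries, 60 mg/kg), as nonTV:Malat1, coupled to a protein without TfR binding (3 libraries, 60 mg/kg, titled RSV-ASO), or as Malat1 ASO (2 libraries, 2.5 mg/kg). Between ATV:BACE1 and any other group the BACE1 antibody and the oligonucleotide therefore differ together and cannot be told apart. TfR binding differs as well against nonTV:Malat1, and against Malat1 ASO, which by its name had no vehicle. The contrast with the mean of the other groups therefore does not balance TfR binding. Libraries numbered 1 came from females of 2.33 months in batch 1, those numbered 4 from males of 2.57 months in batch 3, and those numbered 5 from males of 2.33 months in batch 4. Number and batch cannot be told apart, and sex splits the libraries as replicate 1 against 4 and 5 does. Age does not, since replicate 5 has the age of replicate 1. Malat1 ASO replicate 4 is not analysed here. The labels give the region as posterior brain, whereas the deposited cell table gives cortex as the tissue and C57BL/6J as the strain.

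Libraries held 33235994 to 43972886 UMIs in 7546 to 13840 nuclei, and any 2 libraries shared at most 0.551% of the smaller one's barcodes. Malat1, the target of the oligonucleotide, took 7.45% to 8.38% of UMIs in ATV:BACE1, 7.49% to 8.39% in nonTV:Malat1, 7.87% to 8.15% in Malat1 ASO and 4.00% to 5.03% in OTV:Malat1, the one group that overlapped none of the others. The 3 neuronal markers summed to 4215 CPM in neurons and to 421 to 942 CPM in the other classes compared, which is the level of neuronal RNA measured outside neurons. The class named Glia held choroid plexus genes (3861 CPM summed) and ependymal genes (715 CPM), and the class named pericytes held endothelial markers at 9090.1 CPM beside its own at 5105 CPM. Levels given below for pericytes are those of this named class, and the part of endothelial RNA in them was not tested.

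App encodes a membrane protein that competing proteases cut. Bace1 encodes the β-secretase whose cut opens the route to amyloid-β, and Bace2 encodes its closest relative. Adam10 encodes the main neuronal α-secretase, which cuts App within the amyloid-β sequence. The γ-secretase complex then cuts within the membrane: Psen2 encodes a catalytic subunit, Ncstn encodes nicastrin, and Aph1a a scaffold subunit. Aplp1 and Aplp2 are relatives of App and are processed by the same proteases. Nuclear RNA was measured here, not protein or enzyme activity.

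Bace1 RNA was not found to differ in the group labelled ATV:BACE1. Over all nuclei Bace1 was at 39.3, 33.6 and 36.5 CPM in ATV:BACE1, 36.4, 35.6 and 39.0 CPM in nonTV:Malat1, 41.0, 37.4 and 37.7 CPM in OTV:Malat1, and 41.2 and 41.5 CPM in Malat1 ASO (replicates 1, 4 and 5, or 1 and 5). The ATV:BACE1 libraries overlapped nonTV:Malat1 and OTV:Malat1 and lay below both Malat1 ASO libraries. The log2 difference of ATV:BACE1 from the mean of the other groups was -0.076 (SE 0.0651; 95% interval -0.22 to 0.067; adjusted p = 1.00, edgeR quasi-likelihood test with Benjamini-Hochberg adjustment over 21409 genes). As a fold this was 0.949, with an interval of 0.859 to 1.05. This fit had no term for replicate number, so the spread between replicate numbers is part of its error. With replicate number as a block, 0 of 45 tests of the 9 genes over all nuclei were called (lowest edgeR adjusted p 0.483). Within replicate numbers 1, 4 and 5 the log2 ratios were -0.0051, -0.12 and -0.11. Ratios within replicate numbers are of CPM + 1, without the normalization factors of the edgeR fit. That factor was lowest, at 0.916, in ATV:BACE1 replicate 4. In a sum over all nuclei, a change in cell makeup and a change in level cannot be told apart.

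In neurons Bace1 was at 36.2, 30.3 and 33.7 CPM in ATV:BACE1, 32.4, 32.6 and 36.5 CPM in nonTV:Malat1, 37.5, 34.6 and 35.6 CPM in OTV:Malat1, and 37.5 and 39.0 CPM in Malat1 ASO. Replicate 4 of ATV:BACE1 was the lowest library, and its group again overlapped nonTV:Malat1 and OTV:Malat1. The log2 difference from the mean of the other groups was -0.10 (SE 0.0693; 95% interval -0.25 to 0.052; edgeR adjusted p = 1.00), a fold of 0.933 with an interval of 0.840 to 1.04. Within replicate numbers the log2 ratios, again without normalization factors, were 0.018, -0.14 and -0.13. Against Malat1 ASO alone the neuronal difference was -0.20 (SE 0.0920, edgeR unadjusted p = 0.0494, adjusted p = 1.00). Malat1 ASO has no replicate 4 here, and the fit had no replicate term, so this difference includes the low ATV:BACE1 replicate 4 without a partner. In the shared replicates, ATV:BACE1 and Malat1 ASO had 36.2 and 37.5 CPM (replicate 1) and 33.7 and 39.0 CPM (replicate 5). In oligodendrocytes, the myelin-forming cells, Bace1 was at 78.9, 79.0 and 84.4 CPM in ATV:BACE1, 83.9, 76.2 and 82.1 CPM in nonTV:Malat1, 81.8, 66.0 and 80.9 CPM in OTV:Malat1, and 79.9 and 83.5 CPM in Malat1 ASO. The ATV:BACE1 libraries lay within or just above the range of the others, with a log2 difference of 0.060 (SE 0.125; interval -0.20 to 0.32). In astrocytes the log2 difference was -0.047 (interval -0.34 to 0.25).

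**Figure D1:**
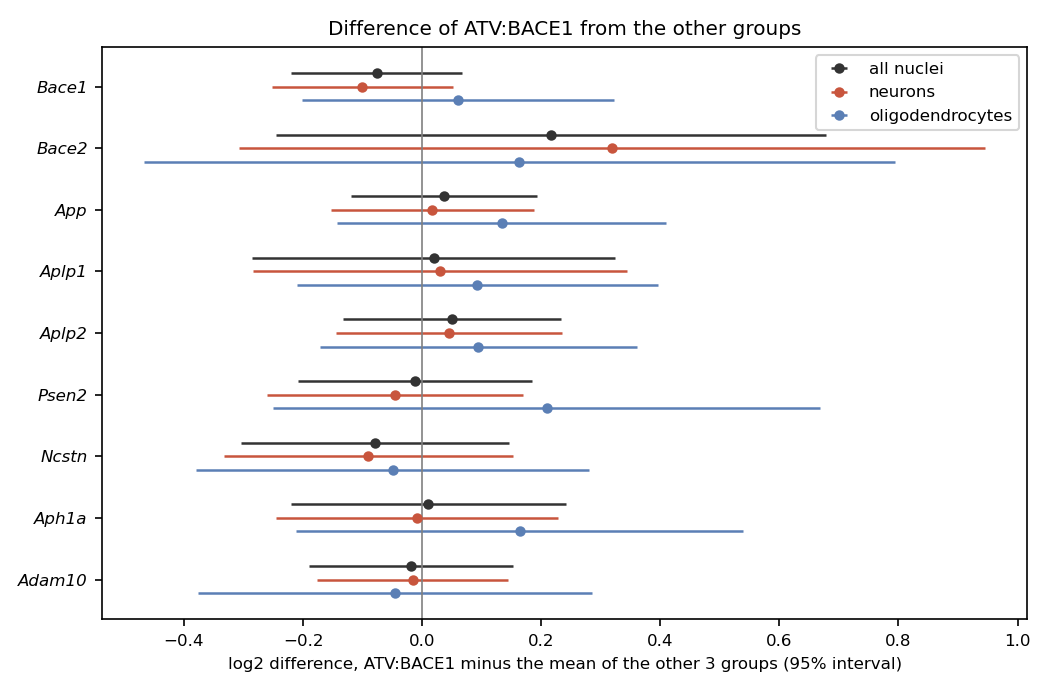
Log2 difference of ATV:BACE1 from the mean of the other 3 groups for the 9 genes in all nuclei, neurons and oligodendrocytes (points are edgeR estimates, bars 95% intervals). Every interval drawn crosses 0, and for Bace1 it runs from -0.22 to 0.067 in all nuclei.

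Bace2, with 2602 UMIs in all libraries, had wide intervals. Over all nuclei it was at 6.76, 5.79 and 8.33 CPM in ATV:BACE1, 4.43, 5.54 and 7.95 CPM in nonTV:Malat1, 4.96, 8.08 and 8.16 CPM in OTV:Malat1, and 4.15 and 6.48 CPM in Malat1 ASO. The groups overlapped, and replicate 1 was the lowest library in every group but ATV:BACE1. The log2 difference of ATV:BACE1 was 0.22 (SE 0.210; interval -0.24 to 0.68) over all nuclei and 0.32 (SE 0.286; interval -0.31 to 0.95) in neurons, with edgeR adjusted p = 1.00 in both. Within replicate numbers the neuronal log2 ratios were 0.67, -0.033 and 0.17. Leaving out 1 library moved the difference over all nuclei to between 0.090 (ATV:BACE1 replicate 5 left out) and 0.32 (Malat1 ASO replicate 5 left out), and that in neurons to between 0.14 (ATV:BACE1 replicate 5 left out) and 0.47 (Malat1 ASO replicate 5 left out).

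App, the substrate, was at 489, 478 and 451 CPM in ATV:BACE1, 463, 459 and 447 CPM in nonTV:Malat1, 481, 489 and 474 CPM in OTV:Malat1, and 464 and 472 CPM in Malat1 ASO over all nuclei. The ATV:BACE1 libraries ran from near the lowest to the highest value of the study. The log2 difference was 0.037 (SE 0.0709; interval -0.12 to 0.19) over all nuclei, 0.017 (interval -0.15 to 0.19) in neurons and 0.13 (interval -0.14 to 0.41) in oligodendrocytes. Its relatives gave 0.020 (interval -0.28 to 0.32) for Aplp1 and 0.050 (interval -0.13 to 0.23) for Aplp2 over all nuclei. Leaving out 1 library moved the Aplp2 value to between 0.012 (ATV:BACE1 replicate 1 left out) and 0.12 (ATV:BACE1 replicate 4 left out).

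Among the γ-secretase subunits the log2 differences over all nuclei were -0.012 (interval -0.21 to 0.18) for Psen2, -0.079 (interval -0.30 to 0.15) for Ncstn and 0.010 (interval -0.22 to 0.24) for Aph1a. Within replicate numbers 1, 4 and 5 the Ncstn log2 ratios were -0.13, -0.14 and -0.0092 over all nuclei (replicate 4 without Malat1 ASO), -0.12, -0.14 and -0.0078 in neurons and -0.078, -0.11 and -0.045 in oligodendrocytes, all below 0. In astrocytes they were of both signs, at -0.090, 0.20 and -0.37. With the replicate number as a block the Ncstn difference over all nuclei was -0.076 (SE 0.0580, edgeR adjusted p = 0.871), and leaving out 1 library, without the block, moved it to between -0.14 (Malat1 ASO replicate 5 left out) and -0.013 (Malat1 ASO replicate 1 left out). Over all nuclei Bace1 and Ncstn were the members below 0 in all 3 replicate numbers, and the other 7 had ratios of both signs. These ratios lack the normalization factors of the edgeR fit, and the share of all genes below 0 in all 3 was not computed. Nothing is therefore read from these signs. Adam10, the α-secretase gene, differed by -0.018 (interval -0.19 to 0.15). Its levels were 101, 85.1 and 87.9 CPM in ATV:BACE1, 101, 87.9 and 90.4 CPM in nonTV:Malat1, 97.7, 94.2 and 87.9 CPM in OTV:Malat1, and 98.2 and 90.6 CPM in Malat1 ASO, and the groups overlapped. Over all nuclei the differences of App, Aplp1, Psen2, Aph1a and Adam10 changed sign on leaving out 1 library or another.

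No member was called, at an edgeR adjusted p under 0.05, in ATV:BACE1 against the mean of the other groups, in ATV:BACE1 against each of them, or in OTV:Malat1 against nonTV:Malat1. In smooth muscle, where 1 ATV:BACE1 library held the 20 nuclei required, only OTV:Malat1 against nonTV:Malat1 was tested. The count of 0 held for 45 tests over all nuclei (0 at an unadjusted p under 0.05), 293 tests in 9 classes (5 at that level) and 430 tests in 10 of the authors' clusters (1 at that level). DESeq2 also called 0, with 0, 1 and 0 tests at an unadjusted p under 0.05. With the replicate block edgeR called 0 as well, with 2, 9 and 12 tests at that level. The background was as empty in the main units: 0% of 21409 genes passed in each of these 5 contrasts over all nuclei, and 0% of 20719 in neurons. In the other classes 0% passed in the contrasts tested there, with 7 exceptions: ATV:BACE1 against OTV:Malat1 (0.00809% in oligodendrocytes, 0.0294% in microglia, 0.0450% in endothelium), ATV:BACE1 against the mean of the other groups (0.0294% in microglia, 0.157% in endothelium) and OTV:Malat1 against nonTV:Malat1 (0.00809% in oligodendrocytes, 0.0225% in endothelium). In the clusters at most 0.00925% passed. Malat1 shows a limit of the test: it was lower in OTV:Malat1 than in nonTV:Malat1 (log2 difference -0.77, SE 0.136, unadjusted p = 0.000136) with an edgeR adjusted p of 1.00, whereas DESeq2 gave an adjusted p of 1.18e-08. Filters on low counts left all 9 genes in neurons, oligodendrocytes and astrocytes, 8 in Glia, 7 in pericytes, 6 in leptomeningeal cells, 5 in microglia, 5 in endothelium and 3 in smooth muscle. The lowest unadjusted p of a member in any class was that of Bace2 in astrocytes, 1.66 higher on the log2 scale in OTV:Malat1 than in nonTV:Malat1 (edgeR adjusted p = 1.00). It rested on 4 to 16 Bace2 UMIs per library.

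The wider pathway was read in 4 lists. Of 6 further γ- and α-secretase genes, 4 genes for amyloid-β degrading enzymes, 16 for App adaptor and trafficking proteins and 12 for substrates of the Bace1 product, edgeR called 0 in ATV:BACE1 against the mean of the other groups, over all nuclei and in neurons. The median log2 differences of the lists over all nuclei were 0.010, 0.047, -0.023 and 0.034 in that order, beside 0.010 for the 9 genes and -0.0016 for all genes tested. Among the substrates, Nrg3 and Nrg1, which encode neuregulins, differed by 0.081 (interval -0.16 to 0.32) and 0.10 (interval -0.14 to 0.33), and Sez6l by -0.026 (interval -0.26 to 0.20). Of the degrading enzymes, the endothelin-converting enzyme genes Ece1 and Ece2 differed by -0.26 (interval -0.55 to 0.022) and -0.015 (interval -0.27 to 0.24), and Ide, the insulin-degrading enzyme gene, by 0.12 (interval -0.31 to 0.55). Of the metalloprotease genes, Adam17 differed by -0.14 (interval -0.36 to 0.068), Adam9 by -0.10 (interval -0.28 to 0.075) and Adam19 by -0.051 (interval -0.23 to 0.13). The reticulon genes Rtn3 and Rtn4 differed by -0.042 (interval -0.17 to 0.088) and -0.031 (interval -0.21 to 0.15), and the adaptor gene Apbb2 by -0.00020 (interval -0.17 to 0.16).

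The levels of the 9 genes were then compared between cell classes within libraries, by a two-sided exact sign-flip permutation test on log2(CPM + 10). Of 324 such tests (36 class pairs), 173 passed an adjusted p of 0.05. Differences are on that scale, which understates the change of low genes. An exact p of 0.000977 is the smallest that 11 libraries can give.

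Bace1 took its largest share of UMIs in oligodendrocytes (79.7 ± 5.17 CPM, SD, n = 11 libraries; lowest 66.0, median 80.9, highest 84.4). Neurons had 35.1 ± 2.62 CPM (lowest 30.3, median 35.6, highest 39.0), and the ranges did not overlap. Oligodendrocytes exceeded neurons by 0.99 (SD 0.111, 11 of 11 libraries, exact adjusted p = 0.00330). They also exceeded the next class, pericytes (54.9 ± 13.6 CPM), by 0.49 (SD 0.349, 11 of 11 libraries, exact adjusted p = 0.00330), a call lost with the mean of single-nucleus CPM (0.34, exact adjusted p = 0.0768). Then came astrocytes (51.7 ± 4.83 CPM), leptomeningeal cells (51.3 ± 11.6 CPM), Glia (47.7 ± 11.2 CPM), microglia (43.5 ± 13.6 CPM), smooth muscle (42.8 ± 29.7 CPM, 8 libraries), neurons and endothelium (33.6 ± 17.6 CPM). No neighbours in that lower part of the order passed the test, which does not speak of classes further apart. Astrocytes, for example, ran from 45.3 to 58.9 CPM, above the highest neuronal library (39.0 CPM). Endothelium held 50 Bace1 UMIs in all libraries and microglia 59.

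Bace2 was highest in Glia (42.4 ± 15.4 CPM; lowest 7.27, median 43.6, highest 62.5). Leptomeningeal cells of the brain's covering followed (26.7 ± 9.88 CPM), and Glia exceeded them by 0.49 (SD 0.399, 10 of 11 libraries, exact adjusted p = 0.00742). The class named leptomeningeal cells held 853 CPM of its own markers (summed) beside 2049.8 CPM of astrocyte, 1324 CPM of choroid plexus, 1256 CPM of oligodendrocyte and 55.2 CPM of ependymal markers. The part of this RNA in the Bace2 and Psen2 levels of the class was not tested. Oligodendrocytes had 10.8 ± 4.14 CPM, neurons 5.62 ± 1.88 CPM and astrocytes 4.76 ± 2.26 CPM. Glia exceeded neurons by 1.67 (SD 0.690, 10 of 11 libraries, exact adjusted p = 0.00536). Endothelium held 2 Bace2 UMIs in all libraries and microglia 3.

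Within Glia, Bace2 lay with the nuclei that held ependymal genes (Foxj1, Ccdc153 and Tmem212, of the cells that line the ventricles). Nuclei with UMIs of these and none of the choroid plexus genes Folr1 and Kl had 88.8 ± 27.4 CPM of Bace2 (178 UMIs in 563 nuclei). Nuclei with choroid plexus genes only had 0.801 ± 1.81 CPM (2 UMIs in 560 nuclei). Median depths were 2514 UMIs in the ependymal and 2774.5 in the choroid plexus nuclei. The lowest ependymal library, 18.5 CPM (2 UMIs in 38 nuclei), was above the highest choroid plexus library, 5.07 CPM (1 UMI in 56 nuclei). The log2 difference was 3.12 (SD 0.580, 11 of 11 libraries, two-sided exact sign-flip p = 0.000977, the smallest possible). App lay the other way, with 219.6 ± 50.2 CPM in ependymal and 494 ± 119 CPM in choroid plexus nuclei, and Bace1 had 45.3 ± 17.2 CPM and 56.2 ± 16.6 CPM. The split was chosen after the values had been seen.

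**Figure D2:**
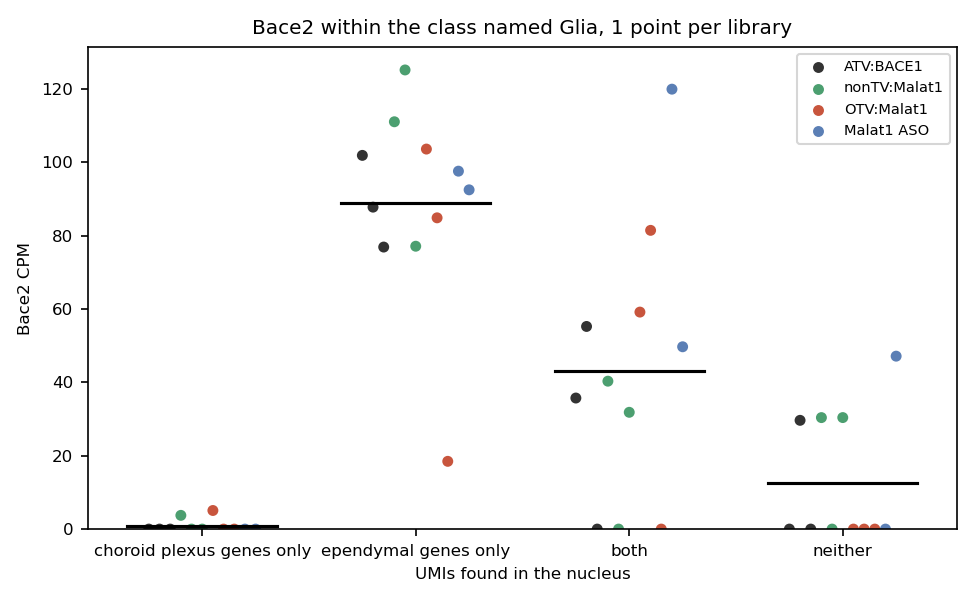
Bace2 level (vertical axis, CPM) in nuclei of the class named Glia, by whether they held UMIs of choroid plexus genes only, ependymal genes only, both or neither; each point is 1 library, coloured by group. Nuclei with ependymal genes only have a mean of 88.8 CPM and those with choroid plexus genes only 0.801 CPM.

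App took its largest shares in endothelium (1167 ± 111 CPM; lowest 1008, median 1153, highest 1407), oligodendrocytes (1067 ± 70.5 CPM) and pericytes (1029 ± 140.5 CPM). Smooth muscle (524 ± 103 CPM), leptomeningeal cells (473 ± 56.1 CPM), microglia (457 ± 110.3 CPM) and neurons (453 ± 13.1 CPM) followed, and no neighbours among these 4 passed the test. Glia (361 ± 63.8 CPM) and astrocytes (229 ± 38.0 CPM) were lower still, each step with an exact adjusted p of 0.00330. Endothelium exceeded neurons by 1.34 (SD 0.127, 11 of 11 libraries, exact adjusted p = 0.00330) and oligodendrocytes by 0.13 (SD 0.119, 9 of 11 libraries, exact adjusted p = 0.0222), the latter a call lost with the mean of single-nucleus CPM (0.076, exact adjusted p = 0.132). After each nucleus was thinned to 1000 UMIs, an App UMI was found in 68.7 ± 6.07% of endothelial, 62.7 ± 2.49% of oligodendrocyte, 35.2 ± 0.837% of neuronal and 19.1 ± 3.55% of astrocyte nuclei. Without thinning these shares were 68.6%, 64.4%, 77.8% and 26.6%, at median depths of 960.5, 947, 3926 and 1402 UMIs. Thinning left out 52.5%, 55.0%, 3.03% and 23.1% of these nuclei as too shallow.

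Of the relatives of App, Aplp1 was highest in oligodendrocytes (319 ± 52.4 CPM) and had its lowest mean in neurons (81.3 ± 15.1 CPM), which they exceeded by 1.85 (SD 0.0936, 11 of 11 libraries, exact adjusted p = 0.00330). Neurons and pericytes (84.6 ± 43.3 CPM) did not pass as a pair (pericytes minus neurons -0.085, exact adjusted p = 0.727). Microglia had the second highest mean (196 ± 84.5 CPM) and did not pass against smooth muscle, the next. Summed oligodendrocyte markers were 2145 CPM in microglia, 448 CPM in neurons and 9451 CPM in oligodendrocytes, and the part of this RNA in the microglial Aplp1 level was not tested. Aplp2 was highest in pericytes (424 ± 45.8 CPM) and endothelium (409 ± 69.4 CPM), a pair that did not pass the test, and had its lowest mean in neurons (134 ± 14.3 CPM), which did not pass against microglia (136 ± 50.2 CPM; microglia minus neurons -0.039, exact adjusted p = 0.808). Pericytes exceeded neurons by 1.59 (SD 0.211, 11 of 11 libraries, exact adjusted p = 0.00330). The class named pericytes also held endothelial RNA, and its part in this Aplp2 level was not tested.

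Of the γ-secretase subunits, Ncstn was highest in microglia (77.5 ± 32.5 CPM), which exceeded endothelium (40.8 ± 19.8 CPM) by 0.78 (SD 0.706, 10 of 11 libraries, exact adjusted p = 0.00742) and neurons (27.1 ± 2.41 CPM) by 1.14 (SD 0.594, 10 of 11 libraries, exact adjusted p = 0.00536). Aph1a was highest in endothelium (54.1 ± 29.2 CPM) and pericytes (43.3 ± 12.98 CPM), a pair that did not pass, and endothelium exceeded neurons (16.2 ± 1.87 CPM) by 1.13 (SD 0.750, 10 of 11 libraries, exact adjusted p = 0.00536). Psen2 ran from 21.3 ± 7.69 CPM in leptomeningeal cells to 9.95 ± 1.02 CPM in neurons, 0.60 (SD 0.408, 10 of 11 libraries, exact adjusted p = 0.00742) apart, and no neighbours in its order passed the test. The α-secretase gene Adam10 was highest in endothelium (263 ± 45.2 CPM), microglia (254 ± 58.5 CPM) and pericytes (218 ± 21.6 CPM), whose neighbours did not pass, then in oligodendrocytes (179 ± 26.6 CPM). Neurons were lowest (86.0 ± 3.64 CPM), and endothelium exceeded them by 1.49 (SD 0.267, 11 of 11 libraries, exact adjusted p = 0.00330).

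**Figure D3:**
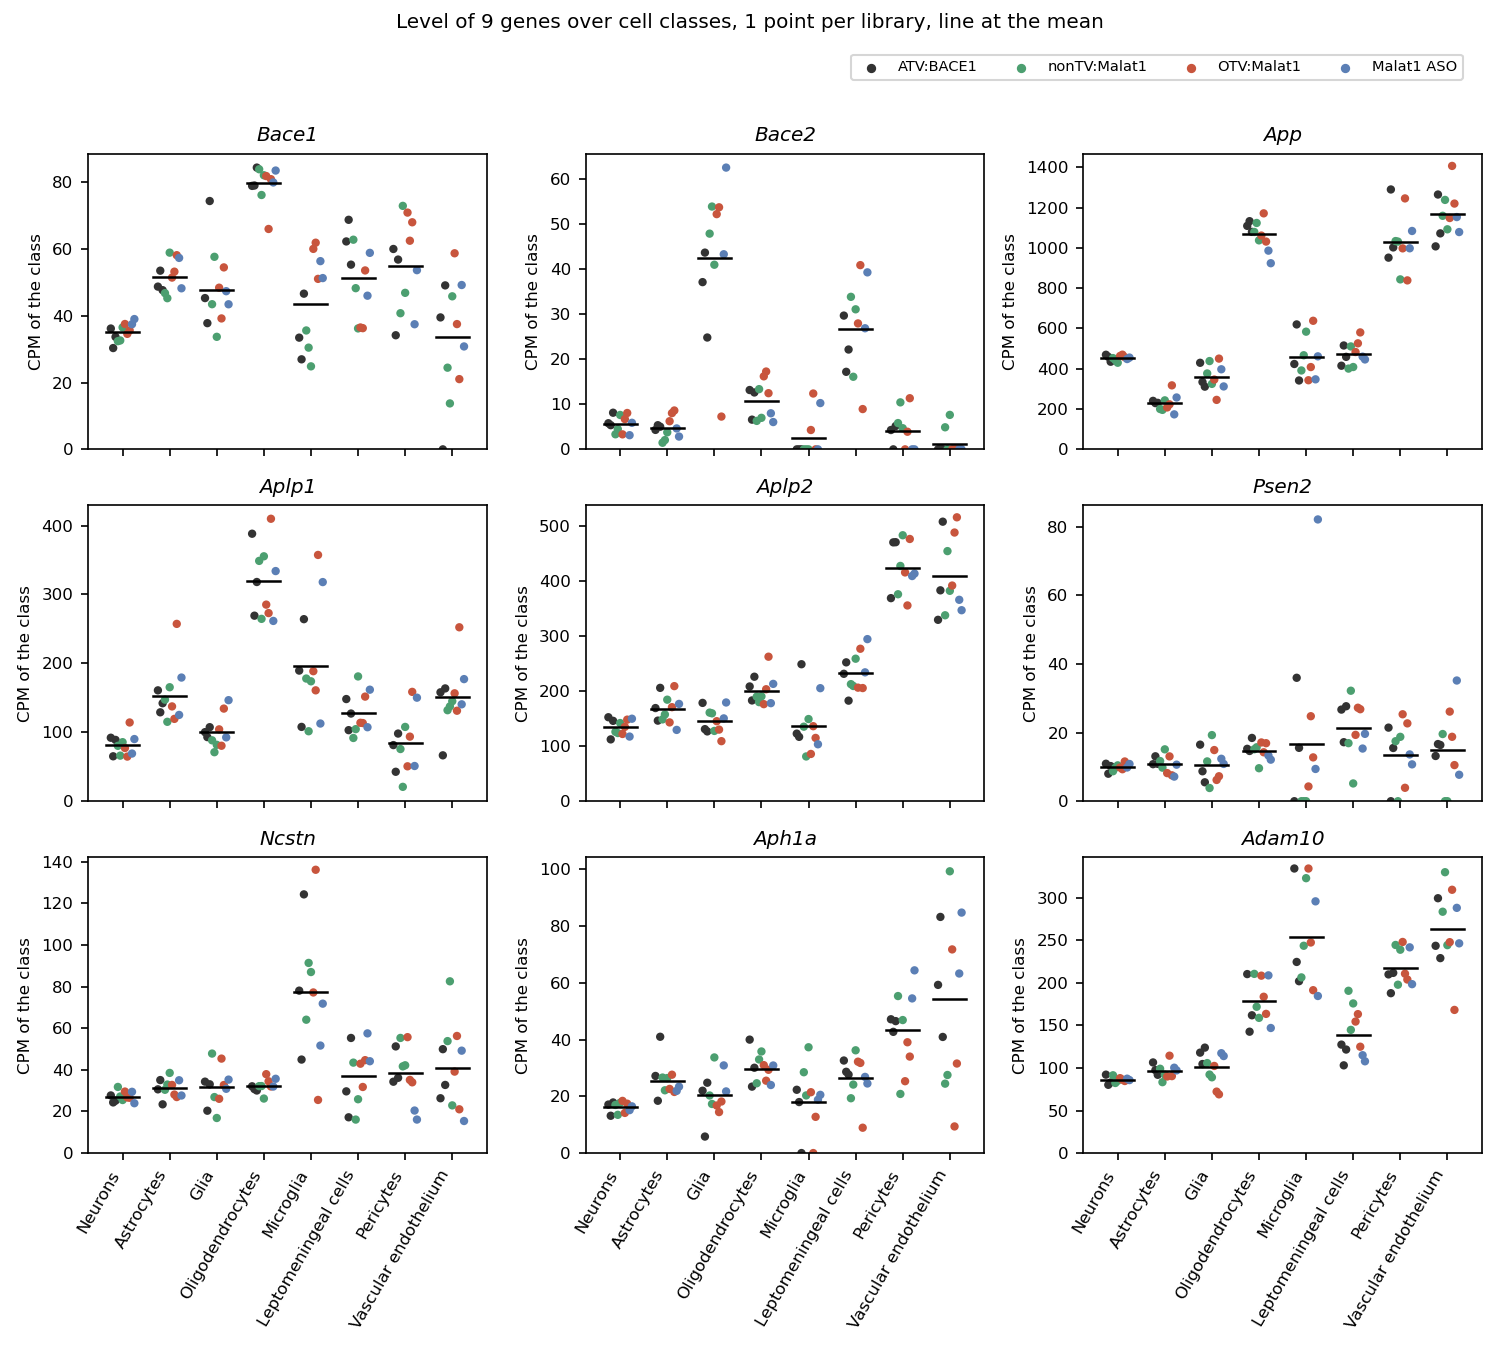
Level of each of the 9 genes (vertical axes, CPM of the class) in 8 cell classes; each point is 1 library, coloured by group, and lines mark the means. Bace1 and Aplp1 are highest in oligodendrocytes (79.7 and 319 CPM), Bace2 in Glia (42.4 CPM), Ncstn in microglia (77.5 CPM) and App in endothelium (1167 CPM).

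CPM is a share of a class's RNA, and neuronal nuclei held more UMIs (median 3926) than those of oligodendrocytes (947) or endothelium (960.5). Counted as UMIs per nucleus, a measure added after the data were seen, several of the orders turned over. Bace1 then stood at 0.170 ± 0.0309 UMIs per nucleus in neurons and 0.0909 ± 0.0123 in oligodendrocytes, a log2 difference of -0.89 for oligodendrocytes minus neurons (exact sign-flip test, adjusted p = 0.00259). Glia, at 0.160 ± 0.0371, did not pass against neurons (neurons minus Glia 0.065, exact adjusted p = 0.652). App had 2.20 ± 0.379 in neurons, 1.22 ± 0.174 in oligodendrocytes and 1.42 ± 0.247 in endothelium, and endothelium minus neurons was -0.62 (exact adjusted p = 0.00259). Pericytes had the highest mean of App by this measure, at 2.48 ± 0.812, and did not pass against neurons (log2 difference from neurons 0.12, exact adjusted p = 0.271). Aplp1 in oligodendrocytes minus neurons was -0.10 (exact adjusted p = 0.0184). Adam10 in endothelium minus neurons was -0.37, and Ncstn in microglia minus neurons -0.65 (exact adjusted p = 0.00259 and 0.0130). Psen2 in leptomeningeal cells minus neurons was -0.57 (exact adjusted p = 0.00430). Bace1 in oligodendrocytes minus pericytes was -0.51 (exact adjusted p = 0.00796). Aph1a in endothelium was -0.33 against neurons and -0.74 against pericytes (exact adjusted p = 0.299 and 0.0260), so that its difference from neurons no longer passed. Pericytes also had the highest means of Aph1a, at 0.105 ± 0.0510 (log2 difference from neurons 0.42, exact adjusted p = 0.0406), and of Adam10, at 0.528 ± 0.198 (log2 difference from neurons 0.30, exact adjusted p = 0.00259). Aplp2 stood at 0.992 ± 0.236 UMIs per nucleus in pericytes and 0.644 ± 0.0910 in neurons (exact adjusted p = 0.00259), and Bace2 at 0.146 ± 0.0561 in Glia and 0.0263 ± 0.00719 in neurons (exact adjusted p = 0.00430), so that both kept their direction. Aplp2 in endothelium, at 0.494 ± 0.0779 UMIs per nucleus, was below neurons by this measure (log2 difference -0.37, exact adjusted p = 0.00608), and pericytes exceeded endothelium by 0.98 (exact adjusted p = 0.00259).

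**Figure D4:**
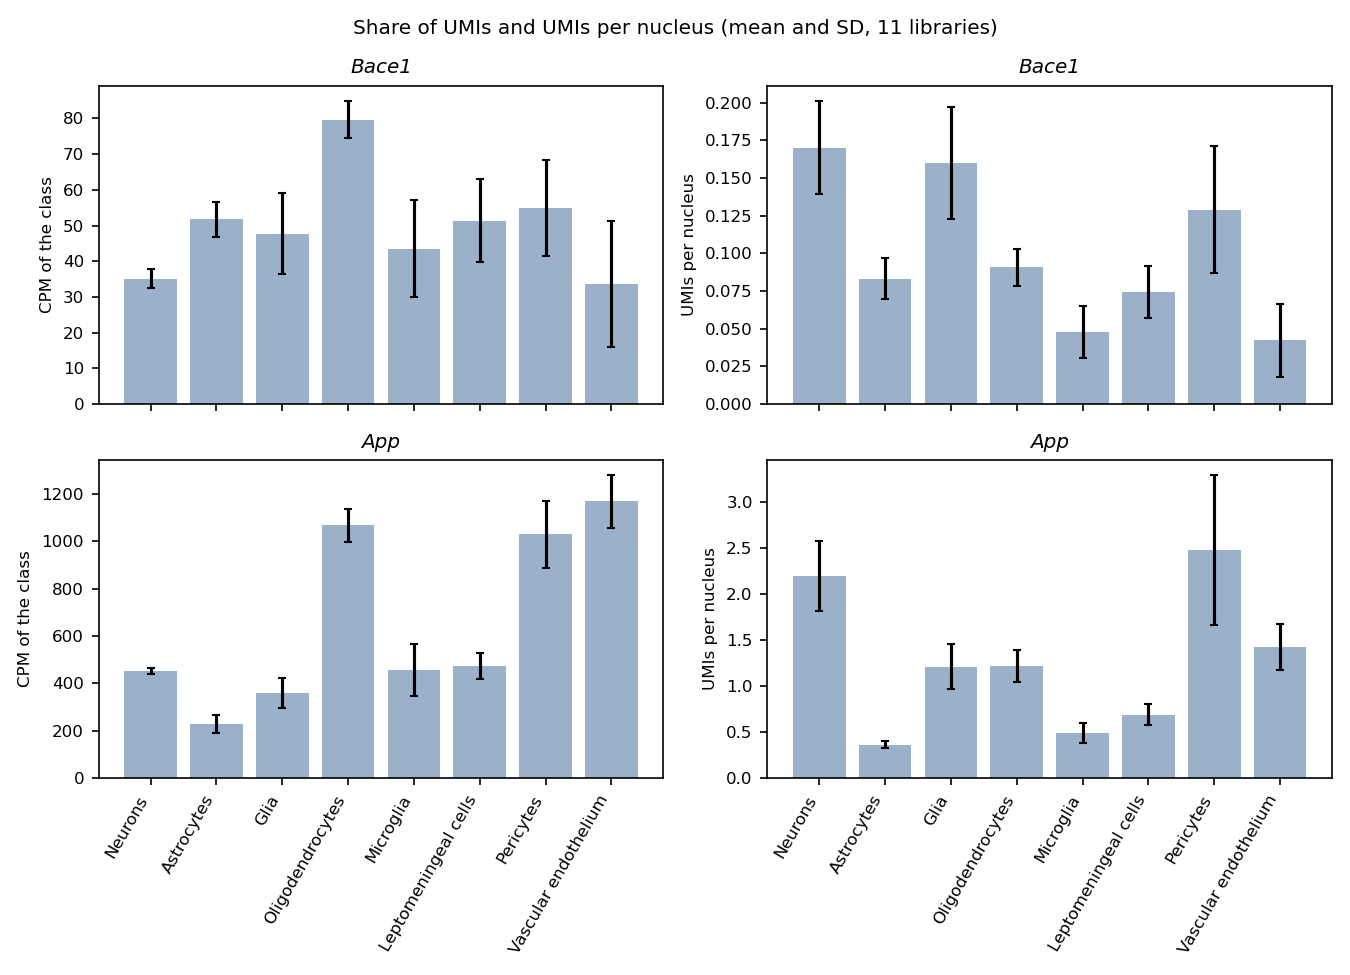
Bace1 and App in 8 cell classes as a share of the class's UMIs (CPM) and as UMIs per nucleus; bars are means over 11 libraries and whiskers SDs. Bace1 is 79.7 CPM in oligodendrocytes and 35.1 CPM in neurons, but 0.0909 and 0.170 UMIs per nucleus.

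Promoters of Aplp2 and Aph1a, genes whose levels ran together over clusters (Pearson r = 0.947), and of Aplp1, which ran with Bace1 (0.948), are printed to show their sequence. RefSeq promoter entries (GRCm38.p6) matched 7 of the 9 genes. The 250 bases before the start lie at chr7:30445583-30445832 (minus strand) for Aplp1, chr9:31211849-31212098 (minus strand) for Aplp2 and chr3:95893671-95893920 (plus strand) for Aph1a. They are written 5′ to 3′ on the gene's strand, with capitals at each match of GGGCGG, the core of the GC box, on either strand.
Aplp1: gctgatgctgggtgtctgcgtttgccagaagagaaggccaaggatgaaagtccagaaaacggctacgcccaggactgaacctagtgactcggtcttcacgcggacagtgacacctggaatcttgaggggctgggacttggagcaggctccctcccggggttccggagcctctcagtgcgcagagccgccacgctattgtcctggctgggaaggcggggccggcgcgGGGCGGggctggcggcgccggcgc
Aplp2: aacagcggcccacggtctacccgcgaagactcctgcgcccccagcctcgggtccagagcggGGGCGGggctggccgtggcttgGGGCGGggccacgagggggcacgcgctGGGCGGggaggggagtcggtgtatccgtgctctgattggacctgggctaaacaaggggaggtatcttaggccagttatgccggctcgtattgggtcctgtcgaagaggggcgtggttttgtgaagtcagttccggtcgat
Aph1a: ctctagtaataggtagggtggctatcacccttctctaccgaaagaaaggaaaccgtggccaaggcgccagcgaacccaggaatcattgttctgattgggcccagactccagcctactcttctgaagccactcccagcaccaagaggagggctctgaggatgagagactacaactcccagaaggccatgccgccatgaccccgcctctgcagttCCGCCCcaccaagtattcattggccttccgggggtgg
Aplp1 had 1 match, Aplp2 3 and Aph1a 1, and 32.7% of 32851 promoter windows of this length held at least 1. TATAAA, searched on both strands, was in none of the 3 and in 12.4% of all. G and C made up 66.0%, 66.4% and 57.2% of the bases, beside a median of 52.4% over all windows. These are matches of letters only.

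The genes lie on 5 chromosomes (GENCODE M21, GRCm38). Bace1 is at chr9:45838580-45864399 and Adam10 at chr9:70678997-70780229, both on the plus strand, and Aplp2 is at chr9:31149557-31211815 on the minus strand. Bace2 is at chr16:97356742-97442936 (plus strand) and App at chr16:84949685-85173766 (minus strand). Aplp1 is at chr7:30434982-30445535, Psen2 at chr1:180227004-180263438 and Ncstn at chr1:172066013-172082795, all on the minus strand, and Aph1a is at chr3:95893969-95898288 on the plus strand. On the opposite strand Bace1 overlaps Rnf214 (61.4 CPM over all nuclei) and Gm16536 (4.01 CPM), Ncstn overlaps Copa (70.5 CPM), and App overlaps Gm49226 (32.4 CPM), Gm10791 (11.3 CPM) and Gm49227 (9.09 CPM). Psen2 overlaps Gm31728 (2.44 CPM) and Aph1a overlaps Car14 (5.75 CPM). How reads in such overlaps were assigned is not given in the sources used here.

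Among neurons, 5 of the authors' clusters (0, 1, 2, 5 and 9) consisted mostly of nuclei named neurons, and 60 of 90 exact sign-flip tests between them passed. Cluster 0 had the highest sum of excitatory markers (173 CPM), and clusters 1, 2 and 9 the highest sums of inhibitory markers (294, 254 and 244 CPM). App was highest in cluster 9 (614 ± 40.8 CPM), then came cluster 1 (510.3 ± 16.6 CPM), cluster 0 (436 ± 13.7 CPM), cluster 2 (424 ± 15.5 CPM) and cluster 5 (406 ± 27.8 CPM), and all neighbours but the last pair passed. Cluster 1 exceeded cluster 0 in App by 0.22 (SD 0.0299, 11 of 11 libraries, exact adjusted p = 0.00259). As UMIs per nucleus this order turned over, at 1.95 ± 0.407 in cluster 1 and 2.37 ± 0.431 in cluster 0 (median depths 3110 and 4401 UMIs). Cluster 9 stayed highest, at 3.02 ± 0.727. Bace1 was at 48.2 ± 12.96 CPM in cluster 9, 44.8 ± 5.24 CPM in 5, 38.1 ± 3.31 CPM in 1, 33.9 ± 3.50 CPM in 2 and 32.6 ± 2.48 CPM in 0. Cluster 5 exceeded cluster 1 in Bace1 by 0.19 (SD 0.105, 11 of 11 libraries, exact adjusted p = 0.00259), and cluster 1 exceeded cluster 2 by 0.13 (SD 0.118, 10 of 11 libraries, exact adjusted p = 0.00955). As UMIs per nucleus cluster 1 (0.145 ± 0.0315) had a lower mean of Bace1 than cluster 2 (0.184 ± 0.0278). Cluster 5 (0.181 ± 0.0270) stayed above cluster 1.

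Clusters 9 and 5 also carried the most oligodendrocyte RNA of the 5. Summed oligodendrocyte markers were 2366 CPM in cluster 9 and 1096 CPM in cluster 5, against 248 to 487 CPM in the other 3, and 41.0% and 35.7% of their nuclei were called doublets in the deposited table. Cluster 5 was 71.5% neurons and held 2034 CPM of astrocyte markers. Of its 5993 nuclei, 913 were named astrocytes and 779 oligodendrocytes, the class highest in Bace1, and all were part of its sums. Without called doublets cluster 9 had 2139 CPM of oligodendrocyte markers, 599 ± 44.5 CPM of App and 51.3 ± 17.0 CPM of Bace1. In cluster 5 leaving them out raised oligodendrocyte markers from 1096 to 1796 CPM and Bace1 from 44.8 ± 5.24 to 53.3 ± 6.47 CPM. The part of oligodendrocyte RNA in these levels, and in the Bace1 difference of cluster 5 from cluster 1, was not tested.

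Between clusters 0, 1 and 2, Psen2 was at 13.04 ± 1.39 CPM in cluster 1, 9.68 ± 0.941 CPM in 0 and 6.92 ± 1.35 CPM in 2, and cluster 0 exceeded cluster 2 by 0.22 (SD 0.119, 11 of 11 libraries, exact adjusted p = 0.00259). Adam10 was at 92.1 ± 4.49 CPM in cluster 0, 86.2 ± 6.99 CPM in 1 and 68.8 ± 3.79 CPM in 2, and cluster 1 exceeded cluster 2 by 0.29 (SD 0.105, 11 of 11 libraries, exact adjusted p = 0.00259). As UMIs per nucleus the direction turned over, at 0.331 ± 0.0813 in cluster 1 and 0.374 ± 0.0510 in cluster 2. Ncstn was at 28.6 ± 2.97 CPM in cluster 0, 26.1 ± 3.27 CPM in 2 and 24.6 ± 2.23 CPM in 1. Aph1a was at 18.2 ± 1.80 CPM in cluster 1, 15.6 ± 1.91 CPM in 0 and 14.5 ± 2.29 CPM in 2, with cluster 1 above 0 by 0.14 (SD 0.118, 9 of 11 libraries, exact adjusted p = 0.00955). Per nucleus it had 0.0694 ± 0.0150 UMIs in cluster 1 and 0.0843 ± 0.0158 in cluster 0, the other way. Aplp2 was at 147 ± 13.5 CPM in cluster 1, 134 ± 14.7 CPM in 2 and 126 ± 14.9 CPM in 0, with cluster 1 above 2 by 0.13 (SD 0.0592, 11 of 11 libraries, exact adjusted p = 0.00259). Per nucleus this too turned over, at 0.559 ± 0.0997 UMIs in cluster 1 and 0.727 ± 0.0994 in cluster 2. Aplp1 was at 85.6 ± 15.3 CPM in cluster 2, 79.1 ± 15.0 CPM in 1 and 77.8 ± 15.4 CPM in 0, with cluster 2 above 1 by 0.10 (SD 0.0608, 10 of 11 libraries, exact adjusted p = 0.00475). Bace2 was at 6.84, 4.43 and 4.29 CPM in clusters 0, 1 and 2. Cluster 0 exceeded cluster 1 by 0.21 (SD 0.183, 8 of 11 libraries, exact adjusted p = 0.0141). It exceeded cluster 2 by 0.22 (SD 0.223, 8 of 11 libraries, exact adjusted p = 0.0212). Clusters 1 and 2 did not pass as a pair. By mean UMIs per nucleus, Psen2 in cluster 0 over 2, Aplp1 in 2 over 1 and Bace2 in 0 over 1 and 2 kept their direction. The order of clusters 1 and 0 turned over for Psen2, at 0.0495 ± 0.00931 UMIs in cluster 1 and 0.0524 ± 0.00961 in 0. It also turned over for Aplp1 (0.294 ± 0.0364 in cluster 1 and 0.413 ± 0.0528 in 0). Bace2 in cluster 1 (0.0168 ± 0.00592) was then below cluster 2 (0.0229 ± 0.00491).

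Over 10 clusters, the gene whose mean log2(CPM + 10) was most like that of Bace1 was Bpgm (Pearson r = 0.988 among 11736 genes), followed by Zbtb8os (0.986), Efcab14 (0.985), Trappc10 (0.983) and Usp54 (0.981). For App these were 9330175M20Rik (0.986), Plekhh2 (0.983) and Atp1b3 (0.979). Bpgm had 81.3 CPM in cluster 3, where Bace1 was also highest (81.3 CPM), and 10.7 to 34.3 CPM in the others. Among the 8 members in this comparison, Bace1 ran closest with Aplp1 (0.948) and Aplp2 with Aph1a (0.947), Bace1 with App gave 0.514, and Bace2 reached at most 0.321 with any other. The clusters come from the same libraries and differ in depth (median 902 UMIs in cluster 3 and 4477 in cluster 2). These are therefore descriptions over 10 points.

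The last comparison set replicate 1 against the mean of replicates 4 and 5 within groups, in a fit with group and replicate as terms. Over all nuclei 4 of the 9 genes passed: Ncstn, Aph1a and Adam10 were higher and Bace2 lower in replicate 1. The background was 36.8% of 21409 genes, so that nothing is read from this count. Ncstn had 28.3 to 32.5 CPM in replicate 1 and 24.9 to 28.0 CPM in the others, without overlap (log2 difference 0.19, SE 0.0532, edgeR adjusted p = 0.0171). Adam10 had 97.7 to 101 CPM in replicate 1 and 85.1 to 94.2 CPM in the others, again without overlap (log2 difference 0.14, SE 0.0417, edgeR adjusted p = 0.0223). The share of all genes without overlap was not computed, so that nothing is read from the lack of overlap. Bace2 had 4.15 to 6.76 CPM in replicate 1 and 5.54 to 8.33 CPM in the others, with overlap (log2 difference -0.47, SE 0.109, edgeR adjusted p = 0.00592). Aph1a had 16.8 to 19.6 CPM in replicate 1 and 14.1 to 19.6 CPM in the others (log2 difference 0.15, SE 0.0545, edgeR adjusted p = 0.0452), and DESeq2 gave it an adjusted p of 0.0905. Bace1 (0.056, interval -0.045 to 0.16) and App (-0.0027, interval -0.10 to 0.095) did not pass. Without nonTV:Malat1 replicate 1, Malat1 ASO replicate 1 or Malat1 ASO replicate 5, 1 member was called, and without nonTV:Malat1 replicate 4, 2 were. Aph1a was called in 1 of the 11 fits that left out 1 library.

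In neurons 3 of 9 passed, beside 35.9% of 20719 genes: Ncstn (log2 difference 0.22, SE 0.0543, edgeR adjusted p = 0.00758), Aph1a (log2 difference 0.16, SE 0.0578, edgeR adjusted p = 0.0450) and Bace2 (log2 difference -0.68, SE 0.130, edgeR adjusted p = 0.00152). DESeq2 gave Aph1a an adjusted p of 0.0888, and it passed in 0 of the 11 edgeR fits that left out 1 library (adjusted p 0.0516 to 0.199). Each of these fits therefore called fewer than 3: without nonTV:Malat1 replicate 1 only Bace2, and otherwise Ncstn and Bace2. In oligodendrocytes 1 of 9 passed, beside 10.8% of 12362 genes. Adam10 had 209 to 211 CPM there in the 4 libraries of replicate 1 and 143 to 184 CPM in the other 7, without overlap (log2 difference 0.38, SE 0.0867, edgeR adjusted p = 0.00348), a fold of 1.30. Here too the share of all genes without overlap was not computed, so that nothing is read from the lack of overlap. The counts of members in neurons and oligodendrocytes lie near the share of all genes called, and nothing is read from them either. The Adam10 difference was 0.27 larger in oligodendrocytes than in neurons (two-sided exact permutation p = 0.00303, the smallest possible, adjusted over 18 tests 0.0545). The permutation moved single libraries freely over groups, although libraries of the same number share a batch. Its p-values therefore take no account of group or batch. With this free permutation of these libraries and 18 tests, 1 gene alone could not reach an adjusted p under 0.05, however large its difference. Aplp2 had the same adjusted p for astrocytes against neurons, in the other direction, with a difference of -0.18 (two-sided exact permutation p = 0.00606, adjusted 0.0545). In astrocytes 0 of 9 passed in edgeR (2 at an unadjusted p under 0.05), beside 12.4% of 14041 genes. No member passed in Glia, leptomeningeal cells, microglia, pericytes, endothelium or smooth muscle, beside 2.83%, 5.13%, 6.18%, 0.727%, 1.06% and 0.646% of the genes tested there.

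**Figure D5:**
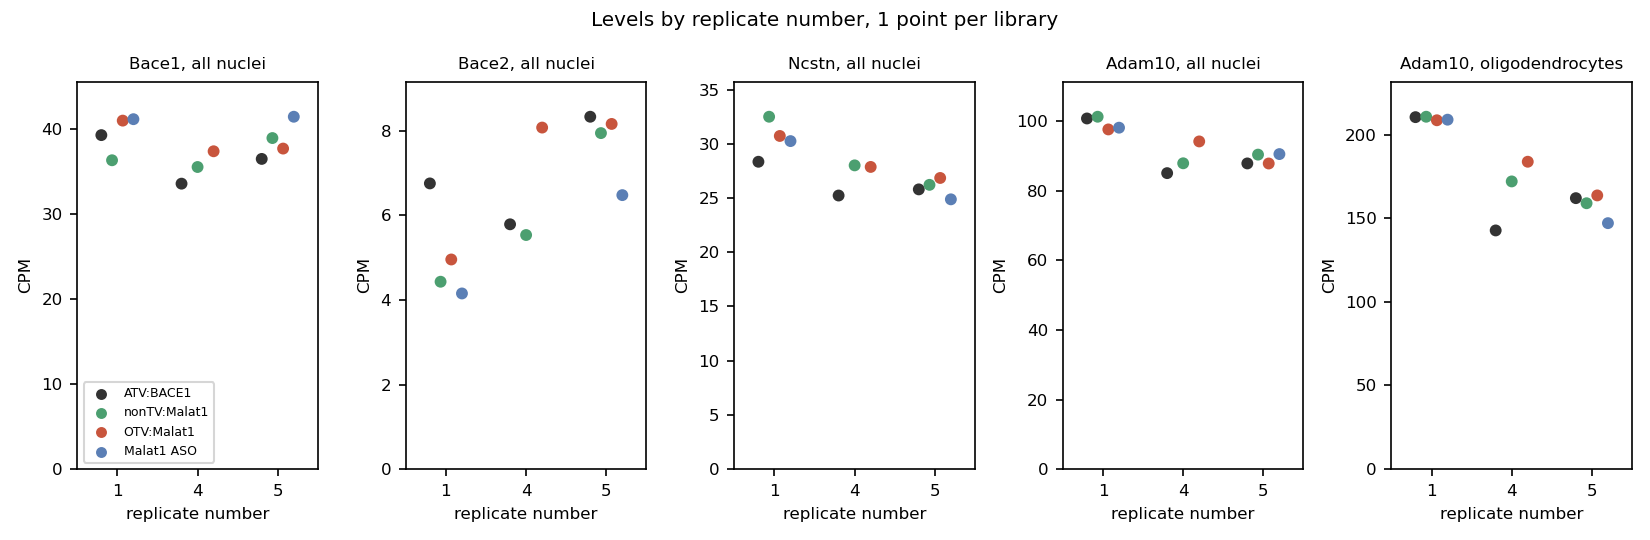
Levels (vertical axes, CPM) of Bace1, Bace2, Ncstn and Adam10 in all nuclei and of Adam10 in oligodendrocytes, by replicate number; each point is 1 library, coloured by group. Adam10 in oligodendrocytes is at 209 to 211 CPM in replicate 1 and at 143 to 184 CPM in the others, while the Bace1 values overlap. The share of all genes without overlap was not computed.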

How the data were processed

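Nuclei from frozen mouse brain were sequenced singly, and the authors' processing used Cell Ranger 5.0.0 and Seurat 4 with build mm10, per the submitters' processing notes. The authors deposited UMI counts of 25938 gene symbols in 110304 nuclei and a cell table with a class, a cluster, a percent of mitochondrial UMIs, a class prediction score and a doublet score (both fractions). The filter on nuclei is not given in the sources used here. Summed counts equalled the deposited totals in all 110304 nuclei. The class prediction score and the doublet score were not used, whereas the deposited doublet calls were. Nuclei called doublets (11445, 10.4%) were kept.

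Counts were summed per library and class or cluster, for libraries with at least 20 nuclei. Contrasts used edgeR 4.0.16 in R 4.3.3 (TMM, a filter on low counts by group, quasi-likelihood test, Benjamini-Hochberg over all genes, threshold 0.05), with all groups in 1 fit, and DESeq2 1.42.0 as an alternative. Levels between classes were compared within libraries by exact sign-flip tests on log2(CPM + 10), over at least 6 libraries. Other alternatives were no TMM, no filter, the replicate block, no called doublets, a pseudocount of 1 CPM, the mean of single-nucleus CPM and each library left out. Scripts were tested on simulated data.

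Replicate numbers paired the libraries: deviations from group means over 7617 genes correlated at 0.601 to 0.889 between libraries of the same number in different groups (15 pairs) and at -0.859 to 0.456 between libraries of different number and group (30 pairs). The labels do not say that libraries are separate litters or preparations, so p-values measure the spread between these libraries. The members, lists and tests were chosen with earlier results of these data known. The text names all 9 members, the 3 most abundant genes of each pathway list where none was called, and the 5 and 3 genes most like Bace1 and App among those with at least 20 CPM in a cluster. UMIs per nucleus, the split of Glia, within-batch ratios and tests of differences between classes were added after seeing the data.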

Additional observations from a re-analysis of the deposited data

How the results depend on the processing

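No member was called in any of the 5 contrasts, over all nuclei or in neurons, with DESeq2, library totals without TMM, no filter, the replicate block, no called doublets, or any 1 library left out. With the replicate block 0 members were called there and in the classes and clusters (2, 9 and 12 tests at an unadjusted edgeR p under 0.05, lowest adjusted p 0.483, 0.377 and 0.398). Genes called in ATV:BACE1 against the mean of the other groups were 0 in the main analysis over all nuclei and in neurons, 1 and 2 with the replicate block, and 1 and 1 with DESeq2. Small differences changed sign: Aph1a over all nuclei (-0.0040 without TMM) and in neurons (0.020 with the replicate block, 0.018 without called doublets), and Adam10 without called doublets (0.0066 over all nuclei, 0.0100 in neurons). The cause was not tested.

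Leaving out 1 library at a time gave Bace1 -0.094 to -0.057 over all nuclei and -0.13 to -0.084 in neurons. Over all nuclei it gave Bace2 0.090 to 0.32, Aplp2 0.012 to 0.12, Ncstn -0.14 to -0.013, Adam10 -0.055 to 0.027, Aph1a -0.046 to 0.10, Aplp1 -0.060 to 0.11, App -0.032 to 0.091 and Psen2 -0.059 to 0.043. In neurons it gave Bace2 0.14 to 0.47, Ncstn -0.15 to -0.020, Adam10 -0.048 to 0.024, Aph1a -0.070 to 0.063, Aplp1 -0.035 to 0.12, Aplp2 -0.013 to 0.12, App -0.052 to 0.070 and Psen2 -0.11 to 0.023. For replicate 1 against 4 and 5 it gave 1 to 4 members and 4764 to 7845 genes called over all nuclei, and 1 to 2 members and 4743 to 7115 genes in neurons, the lowest gene counts without nonTV:Malat1 replicate 1.

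As UMIs per nucleus, which weighs in each class's depth by construction, these differences reversed: Bace1 in oligodendrocytes minus neurons (-0.89) and minus pericytes (-0.51), App in endothelium minus neurons (-0.62), Aplp1 in oligodendrocytes minus neurons (-0.10), Psen2 in leptomeningeal cells minus neurons (-0.57), Ncstn in microglia minus neurons (-0.65), Aph1a in endothelium minus neurons (-0.33) and minus pericytes (-0.74), and Adam10 in endothelium minus neurons (-0.37). Among neuron clusters 0, 1 and 2, the mean UMIs per nucleus also reversed App, Aph1a, Psen2, Bace1, Aplp1 and Aplp2 in cluster 1 against 0. The same held for Bace1, Bace2, App, Aph1a, Adam10 and Aplp2 in cluster 1 against 2. With the mean of single-nucleus CPM, Bace1 in oligodendrocytes minus pericytes was 0.34 and no longer passed, and Aplp2 in pericytes minus endothelium was -0.053. Besides the libraries left out, 242 values stayed the same. These are differences that kept direction and side of the threshold, and counts of calls that stayed equal or close. Of the rest, 15 differences reversed, 3 gained a call, 5 lost one and 4 counts moved. Few UMIs limit Bace2 outside neurons and Glia.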
